A study of Mus musculus with 4 samples.

Results

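The peaks described here are those of mouse genes that carried many separate m6A peaks in embryonic stem cells. A gene was taken when its symbol was listed with 4 or more peaks in at least 2 of the 4 deposited peak lists, on chromosomes 1 to 19, X, Y or MT, with the titin gene left out. The rule found 291 of the 9949 genes with a peak (2.92%), and their 4919 peaks made up 10.6% of the 46417 listed peaks. The genes were chosen by the number of peaks listed for them, so their counts, and the other values read from these peak calls, are given as a description. The only p-values are those of the genotype comparison of transcript classes.

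The 4 libraries came from mouse embryonic stem cells of strain C57BL/6N: 2 of genotype Mettl5-/- (knockout 1 and knockout 2) and 2 labelled wild type (wild type 1 and wild type 2). Total RNA was fragmented, precipitated with an antibody against m6A (Sigma-Aldrich ABE572) and made into cDNA libraries by the SMART method. The protocols also describe embryoid body formation and neural differentiation, but the source of all 4 libraries is given as embryonic stem cells. Whether the libraries of 1 genotype stem from different cultures or clones, how the Mettl5 allele was made and which input was used are not stated in the labels. The wild-type titles differ in wording. The lists held 12699 and 10821 peaks in knockout 1 and knockout 2 and 11696 and 11201 in wild type 1 and wild type 2. The read depth behind them is unknown. Of 12 markers of pluripotent cells, 9 had a peak in at least 1 library, against 4 of 7 neural, 3 of 6 mesoderm and endoderm and 2 of 7 fibroblast markers. Nanog, Zfp42 and Dppa5a, defining genes of pluripotent cells, had none. A peak needs both the transcript and its methylation, so these counts are not levels of the transcripts.

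m6A is a methyl group on the N6 position of adenosine. In messenger RNA it is placed by the METTL3 and METTL14 complex, mostly at sites with the core letters GGAC, and it is known to gather near stop codons and in long internal exons. Reader proteins bind it and act on the splicing, translation and decay of the transcript. METTL5 is a different methyltransferase, known for placing m6A on the RNA of the small ribosomal subunit.

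No genome sequence was used here, so sequence can be shown only where a peak reached a start site or a miRNA hairpin of the RefSeq tables (GRCm38.p6). A RefSeq start-site window was found for 215 of the 291 genes. In 33 of them a peak covered part of the first 50 transcribed bases, and in 12 of the 33 it did so in all 4 libraries. GGAC, searched on the transcribed strand, stood in those 50 bases in 7 of the 33 genes, and the letters lay under a peak in 6. Of all 32851 windows, 18.9% held GGAC in their first 50 bases. These stretches show the start-site letters that lay under a peak in at least 2 libraries, with GGAC in capitals and the 30 bases written 5′ to 3′:
4632427E13Rik: agagaagaactGGACcggccgccatgttgg
Gse1: tgcccgggcgctGGACggaaaggcagcctt
Slc19a2: agacccggaggcGGACttagggaaagggcg
Wnk1: agttttcccgggcGGACgcgctccttctgc
Mtf1: gaagtgacgctagGGACaggtgggggcaat

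The stretch of 4632427E13Rik, a long non-coding RNA, lay at chr7:92741430-92741459 on the minus strand, and its GGAC was under a peak in every library, with the authors' fold enrichment at 159 and 14 in the knockout libraries and 90 and 268 in the wild-type libraries. That of Gse1, which encodes a coiled-coil protein, lay at chr8:120488866-120488895 on the plus strand in the 5′ untranslated region, with folds of 25.6 and 16.4 in the knockout libraries and 43.4 and 11.5 in the wild-type libraries. Slc19a2, a thiamine transporter, had its stretch at chr1:164249046-164249075 on the plus strand under a peak in 3 libraries, all but wild type 1. Wnk1, a kinase that regulates ion transport, had its stretch at chr6:120038617-120038646 on the minus strand under a peak in all but knockout 2. Mtf1, a transcription factor of the metal response, had its stretch at chr4:124802555-124802584 on the plus strand under a peak in knockout 2 (fold 205) and wild type 2 (fold 271), 1 library of each genotype. None of these stretches was covered in 1 genotype and uncovered in the other. The remaining gene with GGAC under a peak, Fignl2, is not shown, since its letters were covered in wild type 1 alone (fold 1840). A match of the 4 letters is a description and not a mapped site.

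A single miRNA hairpin of the RefSeq table lay wholly inside a peak of the 291 genes. It was that of miR-671, at chr5:24592114-24592211 on the plus strand, within a peak of Chpf2, a gene of chondroitin sulphate synthesis. The hairpin was covered in knockout 1 (fold 90.5), knockout 2 (fold 125) and wild type 2 (fold 110). In wild type 1 peaks were listed in the same region, but none held the whole hairpin. The hairpin held no GGAC. Its mature arms are shown because this is the only miRNA hairpin of the RefSeq table wholly inside these peaks, with bases 2 to 8 (the seed) in capitals:
miR-671-5p: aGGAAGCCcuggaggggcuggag
miR-671-3p: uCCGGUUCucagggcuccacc

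Each of the 291 genes had at least 1 peak in all 4 libraries, and 285 had 2 or more in all 4. Of the 291, 93 reached 4 peaks in every library, 79 in 3 libraries and 119 in 2, and 14 had 6 or more in every library. At the edge of the rule, 190 genes had a second-highest count of exactly 4, and 608 genes just outside had 3. The knockout libraries held 1285 and 1163 peaks of these genes (mean 1224 ± 86.3, SD, n = 2), and the wild-type libraries 1232 and 1239 (mean 1235.5 ± 4.95, SD, n = 2). Knockout 1 had more and knockout 2 fewer than either wild-type library, and the difference of -11.5 peaks did not exceed the knockout SD.

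Not all listed peaks were separate places. In 34 of the genes some peaks of 1 library overlapped each other, and once overlapping peaks were counted once the 4919 peaks stood at 4708 places. By places 265 genes still met the rule and 26 did not, and 80 had 4 or more places in every library. Neat1, the scaffold RNA of nuclear paraspeckles, was listed with 7 and 8 peaks in the knockout libraries and 5 and 7 in the wild-type libraries, but held 3 and 4 places in the knockout and 3 and 4 in the wild type. Neat1 thus still met the rule by places, while 4632427E13Rik, Gm8935 and 3222401L13Rik did not. The label of separate peaks therefore held for 265 of the 291 genes only in the sense that their peaks did not overlap. A stretch cut by short gaps still counts as several places. Apc, for example, met the rule by places, although its peaks joined across libraries into only 2 stretches.

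A region is a run of peaks joined across libraries by at least 1 bp of exon overlap. The strength percentile of a peak ranks its p-value within its own list, on a scale where 100 is strongest. Peaks of equal p-value share their mean rank, so the strongest can stand below 100. Values of 99.1 in knockout 2, 99.4 in wild type 1 and 99.1 in wild type 2 are shared by several genes in this way. Ahnak, a giant scaffold protein linked to the cell cortex, had 9 and 12 peaks in the knockout libraries and 11 and 12 in the wild-type libraries, 43 of its 44 peaks in the coding sequence. Its first region, at chr19:9000113-9003973 (plus strand), was absent from knockout 1 and stood at percentiles of 99.1 in knockout 2, 97.2 in wild type 1 and 96.9 in wild type 2. The ninth region was strong in all libraries, at 95.8 and 95.5 in the knockout and 95.5 and 95.5 in the wild type. The gap was thus found in 1 of the 2 knockout libraries.

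Zfhx3, a transcription factor with many zinc fingers and homeodomains, had 11 and 10 peaks in the knockout libraries and 10 and 11 in the wild-type libraries. They spread over 167168 bp of the gene, and 38 of 42 were in the coding sequence. Vcan, which encodes the matrix proteoglycan versican, had 9 and 9 peaks in the knockout libraries and 11 and 9 in the wild-type libraries, of which 5 of 10 regions were shared by all libraries. EPPK1, spelled so in the lists and encoding the cytolinker epiplakin, had 7 and 10 in the knockout libraries and 9 and 8 in the wild-type libraries, all in the coding sequence. Kmt2d, a histone H3 lysine methyltransferase, had 8 and 9 in the knockout libraries and 7 and 8 in the wild-type libraries. Its seventh region, at chr15:98842039-98847416 (minus strand), had folds of 1570 and 562 in the knockout libraries and 929 and 912 in the wild-type libraries. The genotypes overlapped in count for all 4 of these genes.

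**Figure D1:**
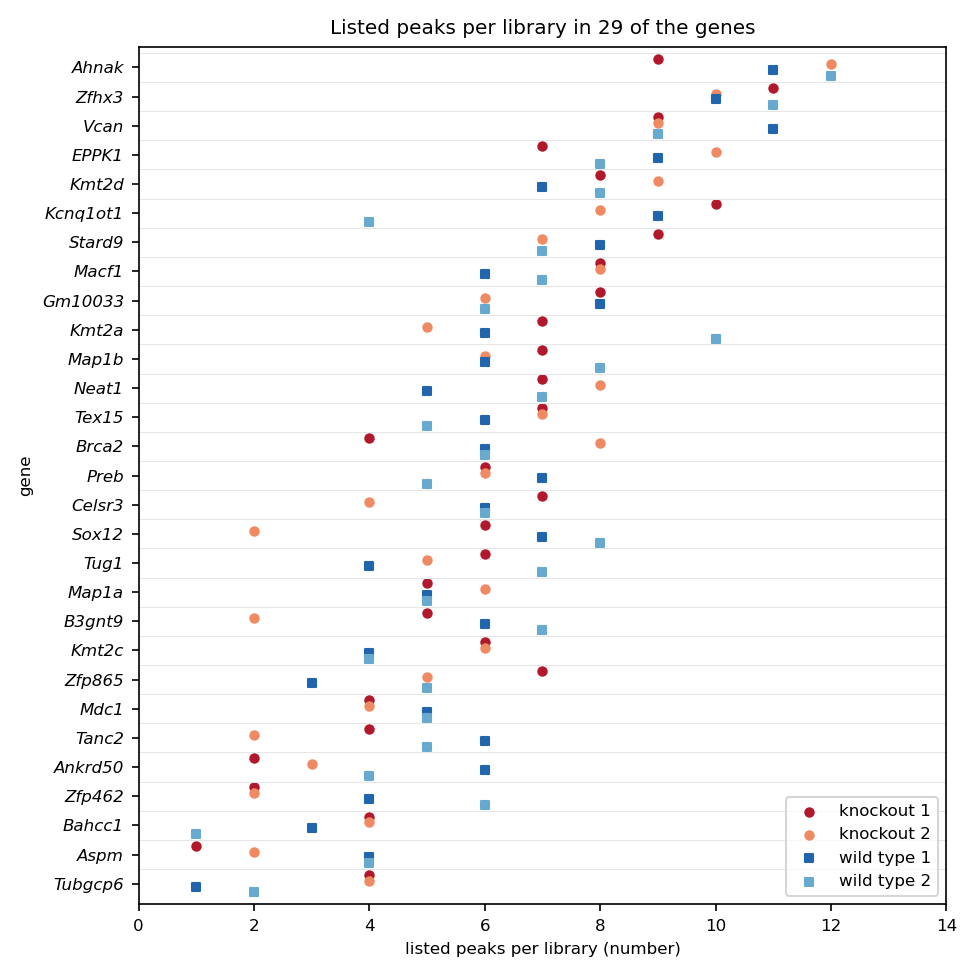
Number of listed peaks (horizontal axis) in each library for 29 of the genes described in the text (vertical axis). Circles are the knockout libraries and squares the wild-type libraries. Zfhx3 has 11 and 10 peaks in the knockout against 10 and 11 in the wild type, so its circles and squares are mixed, while those of Zfp462 and Aspm stand apart.

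Stard9, a kinesin-like protein of mitosis, had 9 and 7 peaks in the knockout libraries and 8 and 7 in the wild-type libraries. Macf1, which links actin to microtubules, had 8 and 8 in the knockout libraries and 6 and 7 in the wild-type libraries, so its genotypes did not overlap. Of its 10 regions 6 were in all 4 libraries, and the other 4 were each listed in a single knockout library, at percentiles from 24.0 to 52.6. Kmt2a, another H3 lysine methyltransferase, had 7 and 5 in the knockout libraries and 6 and 10 in the wild-type libraries. Its first region, at percentiles of 96.9 in knockout 2 and 99.4 and 99.1 in the wild-type libraries, was absent from knockout 1, as for Ahnak. Gm10033, a transcribed pseudogene, had 8 and 6 in the knockout libraries and 8 and 6 in the wild-type libraries, and 16 of its 28 peaks lay outside the gene as RefSeq places it.

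**Figure D2:**
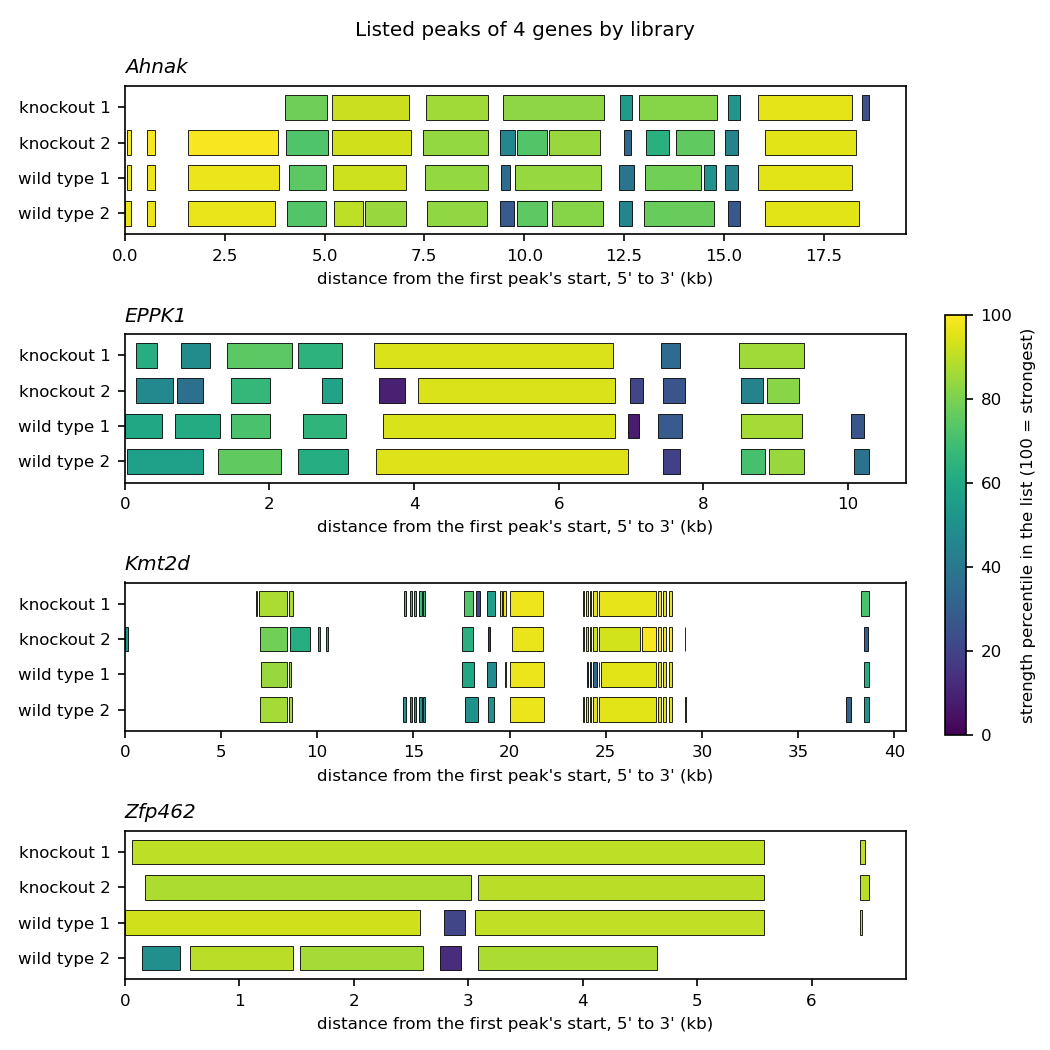
Listed peaks of Ahnak, EPPK1, Kmt2d and Zfp462 drawn by exon block against distance from the first peak's start in kb, knockout rows above wild-type rows, coloured by strength percentile within the list. The first Ahnak peak, drawn as separate exon blocks, is missing from knockout 1. The first Zfp462 region is 1 and 2 peaks in the knockout against 3 and 5 in the wild type, and the distant 3′ region of Zfp462 is not drawn.

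Of the giant cytoskeletal and linker proteins matched by symbol, 6 of the 26 with a peak were among the 291 genes: Ahnak, Macf1, Map1b, Map1a, Ahnak2 and Map4. EPPK1 belongs to this list too, but its spelling in capitals was not matched, so both counts leave it out. Map1b, a microtubule-associated protein of neurites, had 7 and 6 peaks in the knockout libraries and 6 and 8 in the wild-type libraries, and Map1a 5 and 6 in the knockout and 5 and 5 in the wild type. Ahnak2 had 5 and 4 in the knockout and 4 and 6 in the wild type, but only 3 and 2 places in the knockout and 2 and 4 in the wild type. Chromatin regulators gave 8 of 37: Kmt2d, Kmt2a, Kmt2c, Setd2, Ash1l, Spen, Baz2a and Chd8. Setd2, which trimethylates H3 lysine 36, had 3 and 4 in the knockout libraries and 5 and 5 in the wild-type libraries, and Ash1l 3 and 4 in the knockout and 4 and 3 in the wild type. The Kmt2 family was represented by 4 of its 5 members with a peak, and the Celsr family of adhesion receptors by 3 of 3. Other name families that were counted ranged from 2 of 40 for Zbtb to 2 of 2 for Nlgn. Celsr3 had 7 and 4 in the knockout libraries and 6 and 6 in the wild-type libraries, Celsr1 5 and 4 in the knockout and 4 and 5 in the wild type, and Celsr2 4 and 4 in the knockout and 5 and 3 in the wild type. Surface and matrix proteins gave 6 of 28, among them Tenm4, Celsr3 and the receptor Notch2, which had 4 and 5 peaks in the knockout libraries and 4 and 4 in the wild-type libraries.

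Transcription and RNA regulators gave 5 of 21 (Zfhx3, Srrm2, Tnrc6a, Zfp292 and Zfp462). Srrm2, a splicing factor, had 6 and 2 in the knockout libraries and 5 and 4 in the wild-type libraries. Tnrc6a, a partner of Argonaute in miRNA silencing, had 4 and 4 in the knockout and 4 and 5 in the wild type, as did Zfp292. Motors, mitosis and DNA repair gave 3 of 19 (Brca2, Mdc1 and Aspm). Brca2, needed for repair of DNA breaks by recombination, had 4 and 8 peaks in the knockout libraries, on either side of the 6 and 6 in the wild-type libraries. Mdc1, a mediator of the DNA damage response, had 4 and 4 in the knockout libraries and 5 and 5 in the wild-type libraries. Large ubiquitin ligases gave 1 of 11, Rnf213, with 2 and 4 in the knockout libraries and 3 and 4 in the wild-type libraries. These shares stand beside 2.92% of all genes with a peak. The lists were drawn up with large proteins in mind and with results of these data known, so the shares describe them and support nothing further.

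Genes named Zfp with a number, most of them zinc finger proteins, were 26 of the 291 (8.93%), against 323 of all 9949 genes with a peak (3.25%). Of the 291 genes, 270 were protein-coding (92.8%, against 86.1% of all genes with a peak) and 21 were not. Of those 21, Kcnq1ot1, the imprinted antisense RNA of the Kcnq1 domain, had 10 and 8 peaks in the knockout libraries and 9 and 4 in the wild-type libraries. Only 4 of its 14 regions were in all libraries, and the strongest of them, at chr7:143258131-143259360 (minus strand), stood at 78.5 and 76.6 in the knockout and 79.7 and 75.1 in the wild type. Tug1 had 6 and 5 in the knockout libraries and 4 and 7 in the wild-type libraries, and Malat1, an abundant nuclear RNA of speckles, 4 and 3 in the knockout and 4 and 5 in the wild type. Its main region stood at 98.9 and 98.2 in the knockout libraries and 98.7 and 98.3 in the wild-type libraries.

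The other non-coding members were E130317F20Rik, 1500004A13Rik, 3222401L13Rik, Tmem250-ps, 2900097C17Rik, A230020J21Rik, Gm13110, Gm37494, 4632427E13Rik and Gm45133, the pseudogenes Gm10033, Smarca5-ps, Gm8935, AC154506.4, Gm13135, Olfr1372-ps1 and Zfp862-ps, and Neat1 described above. The reads behind a pseudogene peak may be shared with its parent gene and are uncertain for that reason. Of the 21, 2 had more peaks in both knockout libraries than in either wild-type library, where 4.03% of all genes with a peak did, and 1 had fewer, where 3.27% of all genes did. Gm45133 had 4 and 4 in the knockout libraries and 2 and 2 in the wild-type libraries, Tmem250-ps 5 and 5 in the knockout and 4 and 4 in the wild type, and 1500004A13Rik 4 and 4 in the knockout and 5 and 5 in the wild type. The knockout-only region of Gm45133 was weak, at percentiles of 8.11 and 12.4. Gm45133 reached 4 peaks only in the knockout libraries, so it stands apart by the rule itself. Olfr1372-ps1 had all 15 of its peaks outside the gene as RefSeq places it, and so had the protein-coding gene Ocel1.

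The members were long genes. RefSeq gave a gene length for 278 of them, with a median of 41158 bp (interquartile range 14529.5 to 99727.8), against 20347 bp (7823 to 50322.5) for 8794 other genes with a peak. The 24 matched genes that failed the rule by places had a median of 5460 bp, and the 254 that met it 47048.5 bp. This length is the span along the genome with introns, and the length of the transcripts was not compared. Length was not used by the rule, and genes are not replicates. Whether length bears on the number of peaks was not tested. Of the members' peaks 97.2% lay inside the gene as RefSeq places it, against 97.9% of other peaks. In 6.55% of the members' peaks, against 8.90% of others, the region also held a peak of another gene. In 4.55% of the members' peaks, against 6.86% of others, it held peaks on both strands, and the gene is uncertain there since no source used here says that the libraries kept the strand.

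The peaks of the 291 genes lay more often in coding sequence than those of other genes. Coding sequence held 49.1% of them (mean of 4 libraries, range 46.9% to 51.2%), against 33.7% for other genes. The 3′ untranslated region held 33.1% in the 291 genes against 39.1% for other genes. An exon with no finer class held 14.2% in the 291 genes against 22.4% in the others, and the 5′ untranslated region 3.58% in the 291 genes against 4.79% in the others. In every library the coding share was higher in the 291 genes than in the other genes. A coding peak was found in 228 of the 291 genes, and 172 had peaks in both coding sequence and the 3′ untranslated region. In 38 genes every peak was coding, as in EPPK1 and Macf1, and in 17 every peak was in the 3′ untranslated region. Preb, a regulator of secretion, had 21 of its 24 peaks in the 3′ untranslated region, with 6 and 6 in the knockout libraries and 7 and 5 in the wild-type libraries.

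**Figure D3:**
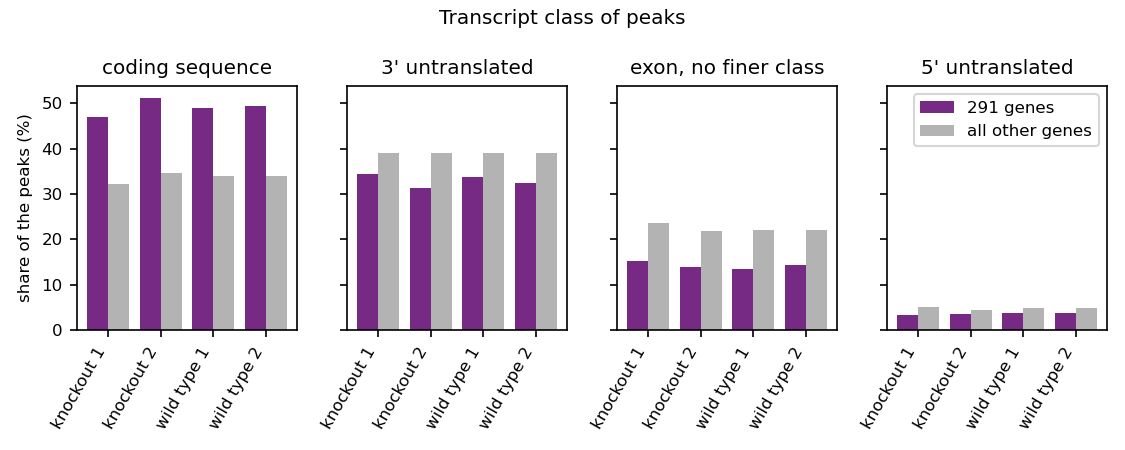
Share of peaks in each transcript class (vertical axis, %) by library, with the 291 genes in purple and all other genes in grey. Coding sequence holds 46.9% to 51.2% of the peaks of the 291 genes and a smaller share of other peaks in each library.

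For 3 of the 4 classes the difference between genotypes was smaller than the larger SD of a genotype. Coding sequence held 49.1% ± 3.06 of the peaks in the knockout libraries and 49.1% ± 0.261 in the wild-type libraries (SD, n = 2 each), a difference of -0.0430 percentage points (exact permutation test over libraries, two-sided p = 1). With 2 libraries a genotype, the smallest p such a test allows is 0.33. The 3′ untranslated region held 32.9% ± 2.19 in the knockout and 33.2% ± 0.934 in the wild type, a difference of -0.257 points (exact permutation p = 1). The 5′ untranslated region held 3.39% ± 0.0658 in the knockout and 3.76% ± 0.0422 in the wild type. These did not overlap, and the difference of -0.371 points had the smallest p possible here (exact permutation p = 0.33), over only 40 to 47 peaks per library. In the other genes this class held 5.06% and 4.41% in the knockout libraries and 4.75% and 4.93% in the wild-type libraries, which overlapped. For exons with no finer class the difference was 0.712 points (exact permutation p = 0.667).

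The peaks were wider than those of other genes and somewhat fewer of them crossed introns. The median width was 420 and 391 bp in the knockout libraries and 391 and 419 bp in the wild-type libraries, against 330 to 359 bp for other genes. On average 6.52% had more than 1 exon block, against 10.8% to 11.6% in other genes. By genotype the share was 7.32% and 6.36% in the knockout libraries and 6.17% and 6.21% in the wild-type libraries, which did not overlap. Nor did the median strength percentiles, at 56.1 and 52.6 in the knockout and 50.9 and 51.9 in the wild type. With 2 libraries a genotype no such separation can be called. The median fold was 25.6 and 30.6 in the knockout libraries and 28.2 and 32.5 in the wild-type libraries. Within each list it was above the median of other genes, at 18.4 and 23.9 in the knockout and 21.7 and 25.9 in the wild type, while the share in the strongest 10% of a list was lower, 8.36% on average. Folds belong to their own list and were not compared between lists.

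Neighbouring places on a gene were close. Over 3544 neighbouring pairs in the 4 libraries the median gap was 509 bp along the genome (interquartile range 209 to 2304.25), 63.0% were under 1000 bp and 350 (9.88%) were under 100 bp. Another 476 gaps (13.4%) exceeded 10000 bp, and these include introns. The median gap was 478 and 569 bp in the knockout libraries and 508 and 539 bp in the wild-type libraries, so the genotypes overlapped.

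Within a gene the peaks differed widely in strength. The median ratio of the highest to the lowest fold in a gene with 4 or more places was 20.2 and 15.2 in the knockout libraries and 17.7 and 20.8 in the wild-type libraries. The strongest region was the same in all 4 libraries for 202 of the 291 genes (69.4%), against 782 of 1066 other genes with 2 or more peaks in all libraries (73.4%). In 9 of the 291 genes (3.09%) it was the same within each genotype but differed between them, against 26 of the 1066 others (2.44%) and 2.58% of both sets together. The strongest place was the most 5′ in 20.5% to 25.0% of genes and the most 3′ in 15.5% to 23.0%, with 21.7% to 22.2% for each end if every place were equally likely. Over the 751 regions with a peak of the same gene in all libraries, the percentiles of knockout 1 and knockout 2 had a Spearman rho of 0.949 and those of wild type 1 and wild type 2 also 0.949. Across genotypes rho was 0.931 to 0.947. Each rho pools the regions of many genes and says nothing of the order within a single gene. Regions of 1 gene share a transcript and are not independent, so these are descriptions.

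Joined across libraries, the peaks formed 1320 regions. A peak in all 4 libraries was found in 755 of them (57.2%), in 3 libraries in 175 (13.3%), in 2 in 175 (13.3%) and in 1 in 215 (16.3%). Of the 14167 other regions 41.2% were in all libraries and 29.4% in 1. The rule asked for peaks in at least 2 lists and so favours shared regions. At least 1 region was shared by all libraries in 288 genes, and in 50 genes every region was. The median strength percentile was 60.6 for peaks in regions of all 4 libraries, 32.6 for 3, 21.1 for 2 and 12.6 for 1, and the median width was 480, 241, 210 and 151 bp. Less shared regions were thus weaker and narrower within their own lists.

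**Figure D4:**
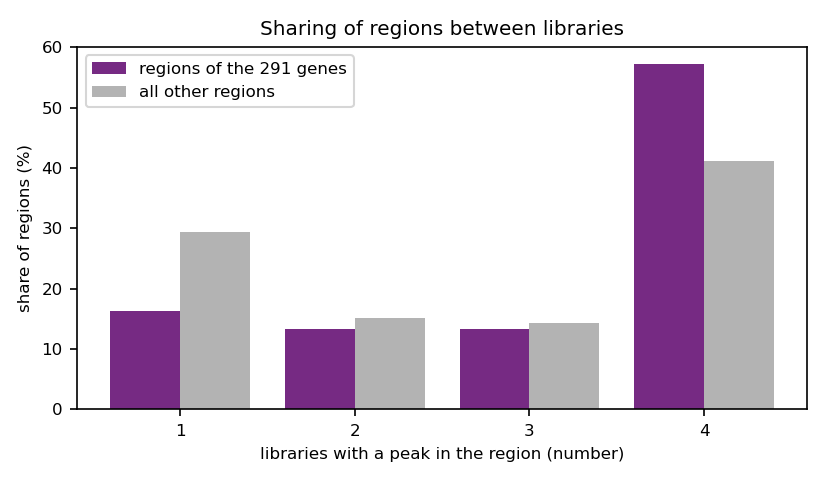
Share of regions (vertical axis, %) by the number of libraries with a peak there (horizontal axis), for the 1320 regions of the 291 genes in purple and the 14167 other regions in grey. Regions in all 4 libraries are 57.2% in purple and 41.2% in grey.

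Few regions followed the genotype. Both knockout libraries and no wild-type library had a peak in 27 regions (2.05%), where 2.51% of all regions met that description. Both wild-type libraries and no knockout library had one in 23 (1.74%), where the share of all regions was 2.02%. Both counts lie near or below the background, so they show nothing about these genes. The median of the mean percentile was 27.0 for knockout-only and 23.0 for wild-type-only regions. Of the knockout-only regions 9 exceeded a mean percentile of 70, or 0.682% of the 1320 regions, where 0.381% of all regions did. Of the wild-type-only regions 1 did, or 0.0758%, where the share of all regions was 0.252%. That limit was chosen after the values were seen, and the counts depend on the libraries used: without knockout 2 there were 13 such knockout-only and 15 such wild-type-only regions, and without knockout 1 there were 15 and 6.

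**Figure D5:**
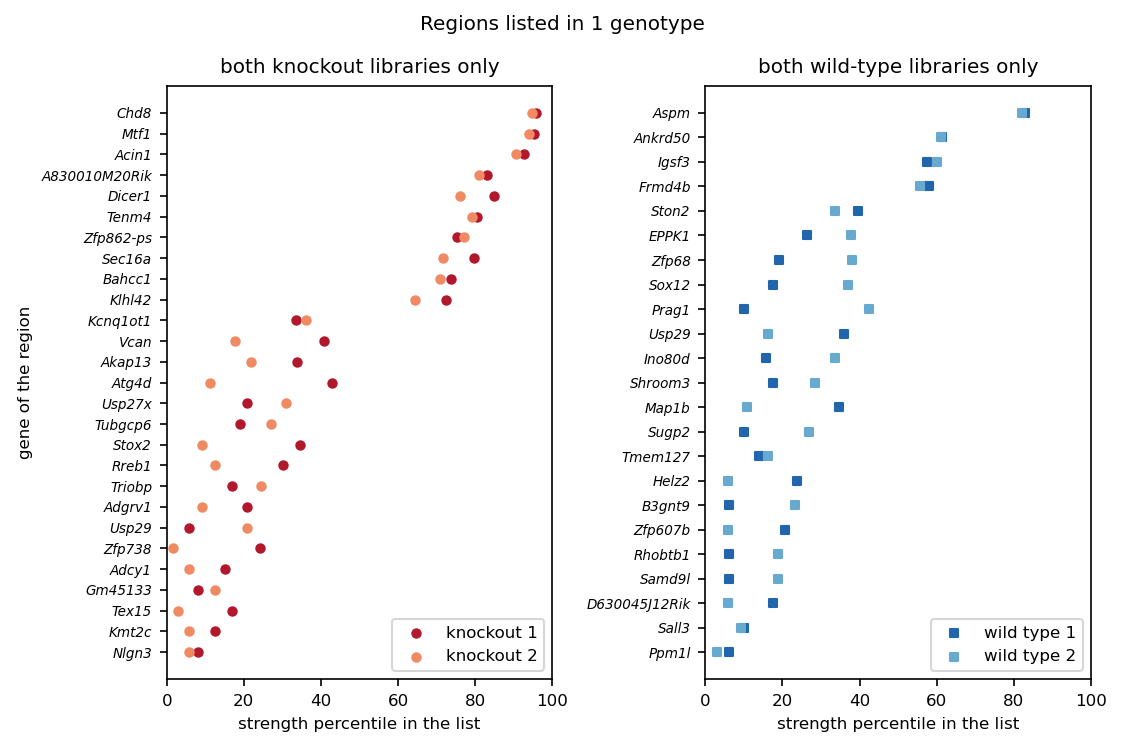
Strength percentile within the list (horizontal axis) of the regions listed in both knockout libraries only (left) and both wild-type libraries only (right), a row per region, with 1 point per library. Of the knockout-only regions 9 have a mean above 70, and 1 of the wild-type-only regions has.

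The strongest knockout-only region was in the coding sequence of Chd8, a chromatin remodeller, at chr14:52227504-52235465, with percentiles of 95.8 and 94.9 in the knockout libraries and no peak in the wild-type libraries. The last Chd8 region, at 96.1 and 92.9 in the knockout and 95.9 and 94.8 in the wild type, was listed in all 4. In Mtf1 the region at chr4:124804662-124805201 (coding sequence) had folds of 375 and 270 in the knockout libraries and none was listed in the wild type. Acin1, a nuclear protein of the exon junction complex, had percentiles of 92.6 and 90.6 in the knockout libraries but folds of only 6.20 and 5.21. Dicer1, the enzyme that cuts miRNA precursors, had a knockout-only region at chr12:104697831-104703181 at 84.8 and 76.1, and its second region was at 88.3 and 82.4 in the knockout and 84.9 and 82.7 in the wild type. Tenm4, a teneurin adhesion protein, had one at 80.4 and 79.1. The other regions above 70 were in A830010M20Rik, Zfp862-ps, Sec16a and Bahcc1. In the wild-type libraries the strong case was Aspm, a spindle pole protein of dividing progenitors, at chr1:139456808-139458429, with percentiles of 82.9 and 82.1 and folds of 145 and 322 there and no peak in either knockout library. The wild-type-only regions of Helz2 and Ino80d were weak, at percentiles of 23.7 and 5.80 in Helz2 and 15.8 and 33.5 in Ino80d.

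The absence of a strong peak was also seen in single libraries. Of regions listed in 3 libraries, those missing from knockout 1 numbered 28, of which 13 had a mean percentile above 70. Those missing from knockout 2 numbered 84 (5 above 70), from wild type 1 31 (4 above 70) and from wild type 2 32 (2 above 70). Regions found in 1 library alone numbered 99 for knockout 1, 30 for knockout 2, 46 for wild type 1 and 40 for wild type 2. The knockout libraries differed from each other in both counts by more than the wild-type libraries did. Knockout 1 has the longest list and knockout 2 the shortest. Both counts are given only for regions of the genes taken by the rule, with no matching share of all regions. Whether they are particular to these genes or follow the lengths of the lists was not tested. How far the regions of 1 genotype depend on such single-library gaps was not tested. Tenm4 shows both kinds: its region at chr7:96905845-96906835 (plus strand) was at 99.1 in knockout 2 and 98.6 and 99.1 in the wild-type libraries and absent from knockout 1.

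Per gene, the knockout libraries averaged 4.21 peaks and the wild-type libraries 4.25, a mean difference of -0.0395, with single genes from -3.5 to 2.5. It was positive in 100 genes, negative in 111 and 0 in 80. Both knockout libraries had more peaks than either wild-type library in 21 genes (7.22%, where 4.03% of all genes with a peak did), and fewer in 27 (9.28%, where 3.27% of all genes did). A gene with few peaks is often tied between libraries and one with many seldom is, so the shares are not like for like. The rule also takes in genes that reached 4 peaks only in both libraries of a single genotype, such as Tubgcp6 and Aspm. Such genes stand apart by the rule itself, which can raise both shares. How much of the difference from all genes comes from this was not tested. By separate places the counts were 20 and 27, and among the 93 genes with 4 or more peaks in every library 6 and 5.

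Of the genes with more peaks in the knockout, Tubgcp6, a part of the gamma-tubulin ring complex, had 4 and 4 in the knockout libraries and 1 and 2 in the wild-type libraries. Kmt2c had 6 and 6 in the knockout libraries and 4 and 4 in the wild-type libraries. The Kmt2c excess was a region that stood as 2 peaks in each knockout library and 1 in each wild-type library, plus a weak knockout-only region at percentiles of 12.6 and 5.68. Bahcc1 had 4 and 4 in the knockout libraries and 3 and 1 in the wild-type libraries, and none of its 6 regions was in all libraries. Tubgcp6 and Bahcc1 reached 4 peaks only in the knockout libraries, so they stand apart by the rule itself. Tex15, a germ-cell gene of transposon silencing and meiosis, had 7 and 7 in the knockout and 6 and 5 in the wild type. Zfp865, with 7 and 5 in the knockout and 3 and 5 in the wild type, and Fignl2, with 5 and 6 in the knockout and 2 and 5 in the wild type, overlapped between genotypes.

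Of the genes with fewer peaks in the knockout, Zfp462, a zinc finger regulator of chromatin in stem cells, had 2 and 2 in the knockout libraries and 4 and 6 in the wild-type libraries. Its strong coding region at chr4:55008265-55014763 (plus strand) was present in all libraries, at percentiles of 89.9 and 89.6 in the knockout and 92.8 and 89.8 in the wild type. It stood as 1 and 2 peaks in the knockout and 3 and 5 in the wild type. The distant 3′ region was listed once in knockout 1 and in each wild-type library and was not listed in knockout 2. Aspm had 1 and 2 in the knockout libraries and 4 and 4 in the wild-type libraries. Besides its wild-type-only region, the Aspm region at chr1:139477493-139482434 held 1 and 2 peaks in the knockout and 3 and 3 in the wild type. Ankrd50, which has a part in endosomal sorting, had 2 and 3 in the knockout and 6 and 4 in the wild type, and its main region stood at 97.6 and 96.5 in the knockout and 96.6 and 96.6 in the wild type. Zfp462, Aspm and Ankrd50 reached 4 peaks only in the wild-type libraries, so they stand apart by the rule itself. Tanc2, a synaptic scaffold protein, had 4 and 2 in the knockout and 6 and 5 in the wild type. All its peaks were weak, the strongest at percentiles of 32.6 and 20.8 in the knockout libraries and 23.7 and 18.8 in the wild-type libraries. Sox12, a transcription factor, had 6 and 2 in the knockout and 7 and 8 in the wild type. B3gnt9, a glycosyltransferase, had 5 and 2 in the knockout and 6 and 7 in the wild type. Both are listed with overlapping peaks. By places Sox12 had 3 and 1 in the knockout and 4 and 4 in the wild type, which stayed apart, and B3gnt9 had 3 and 1 in the knockout and 3 and 4 in the wild type, which overlapped, and B3gnt9 did not meet the rule by places.

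Some regions were cut into more places in 1 library than in another. In 212 of the 1320 regions (16.1%), in 167 genes, 1 library had 2 or more places where another had 1. The matching share of all regions was not counted. Cut peaks add to the number of peaks that the rule asks for, so the share describes these genes only. Tug1 had a region of 3 and 3 places in the knockout and 1 and 4 in the wild type. In Akap13, an anchoring protein for protein kinase A, 1 region held 1 and 3 in the knockout and 4 and 2 in the wild type, and a region of Vcan 1 and 3 in the knockout and 4 and 1 in the wild type. The number of peaks of a gene therefore counts places and cuts together in these lists.

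Weak peaks had coarse values. The fold listed most often was 8.81 in knockout 1 (529 peaks) and 9.71 in knockout 2 (367), against 8.68 in wild type 1 (451) and 8.88 in wild type 2 (372). Of these, 35 and 31 in the knockout libraries and 40 and 28 in the wild-type libraries were peaks of the 291 genes.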

How the data were processed

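The data were 4 MeRIP-seq peak lists, 2 of Mettl5 knockout and 2 of wild-type mouse embryonic stem cells, grouped by the genotype in the labels. The authors deposited 1 list per library, so replicates were not pooled. Per the file headers, each peak has a position, its exon blocks, the gene and transcript class, and 3 kinds of value. These are a p-value, log10 of that and of an adjusted p-value (kept here as a score), and a fold enrichment, the authors' ratio to an unnamed background. HISAT2, HOMER and mm10 are named, with no roles, per the submitters' processing notes. Neither caller nor input is given in the sources used here, and read depth is unknown. Folds and p-values are the authors' values, used only within a list.

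Starts counted from 0 in the lists were turned to 1-based mm10 coordinates. Peaks off chromosomes 1 to 19, X, Y and MT were left out. Peaks were joined into regions across genes, on either strand, where their exon blocks shared 1 bp or more. A place is a set of overlapping peaks of 1 gene in 1 library. The strength percentile ranks the log10 p-value within a list. In a region with several peaks of 1 library the highest fold and the highest percentile stand for it. Gene lengths, start-site sequences and miRNAs came from RefSeq tables (GRCm38.p6). Genotypes were compared over libraries with exact permutation tests, two-sided, and otherwise described. P-values measure only the spread between these libraries, which may be technical.

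The genes, the gene lists and the alternatives were chosen with earlier results of these data known. Named were the 12 genes with the most peaks, all non-coding members, the 6 with the largest genotype difference each way, the 6 with the most regions of each genotype, the 6 with the highest lowest count, and up to 5 of each list. Some genes that this rule takes are not reported here. Acin1, Chd8, Chpf2, Dicer1, Gse1, Mtf1, Ocel1, Preb, Sec16a, Slc19a2, Wnk1 and A830010M20Rik were named after their values were seen. Counting was tested on simulated lists, copies of a wild-type list with small shifts and with some peaks removed from both libraries of a genotype. No peak there was split or lost from a single library, so such cases were not tested. Python 3.11.15, pandas 2.3.3, numpy 2.4.6, scipy 1.17.1 and matplotlib 3.10.9 were used. Alternatives varied the rule, the strength limit, the overlap and the libraries used.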

Additional observations from a re-analysis of the deposited data

How the results depend on the processing

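The number of genes, 291 with a mean of 1229.75 peaks per library, follows the rule by construction. Asking for 3 peaks per list gave 899 genes and 2866.5 peaks, 5 gave 101 and 542.5, and 6 gave 38 and 256. At least 1 list gave 555 and 1969.25, at least 3 lists gave 172 genes, and 4 lists gave 93 and 501.25. The stronger 50% of each list gave 50 genes and 209.75 peaks per library. It also gave 437 shared regions, 9 wild-type-only and 110 of 1 library, a coding share of 53.4%, a median width of 636.875 bp and 10.9% with several exon blocks. Fewer peaks enter there by construction. Genes with 4 peaks in all lists had 333 shared, 7 knockout-only, 2 wild-type-only and 84 single-library regions, a coding share of 54.2%, a width of 435.125 bp and 5.73% with several blocks. Genes with 5 peaks in 2 lists had a coding share of 58.4% and a width of 423.125 bp. Joining peaks within 100 bp left 15 wild-type-only regions. The cause of the changes in class and width was not tested.

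Leaving out each library in turn gave 219 to 248 genes, 986.667 to 1116.33 peaks per library, 799 to 848 regions in all remaining libraries and 247 to 273 in 1. The single library of a genotype then stands for it, so knockout-only regions came to 59 to 126, the most without knockout 2, and wild-type-only regions to 51 to 117, the most without knockout 1. Those above a mean percentile of 70 ranged from 11 to 15 and from 2 to 15, and without knockout 2 the wild-type-only ones numbered 15. The knockout minus wild-type difference changed sign: -2.20 to 2.12 points in coding share, -1.80 to 1.29 in the 3′ untranslated region and -0.249 to 0.170 peaks per gene. The mean coding share was 48.4% to 49.8%, the width 400.333 to 410 bp and the share with several blocks 6.25% to 6.63%. Split or joined regions came to 211 with whole spans and 236 with peaks within 100 bp joined. The strong regions of 1 genotype and the genes counted by places were looked at only after seeing the data. No paired analysis was possible because titles of the wild-type libraries give no number to match, and nothing was fitted. The search for GGAC and GGACT in peak sequences was not run, since no genome was used here. Read depth is unknown, so a missing peak cannot be told from too few reads.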
